A study of Arabidopsis thaliana with 9 samples.

Results

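Candidate cleavage sites of young miRNAs that pair well with their targets were examined in Arabidopsis thaliana seedlings under heat. A site is a miRNA, a target transcript and a slice position. Sites were taken when the miRNA number runs from miR415 upwards, leaving out miR472, miR827, miR828 and miR857, and when the Allen score, a mismatch penalty that is 0 for a perfect duplex, was 4 or less. The loci AT5G09590 and AT5G14740 were left out. This gave 150 of the 1662 sites listed over 9 libraries, or 270 of 3041 lines (a line is 1 site in 1 library), from 64 of 279 miRNAs and in 149 loci. The miRNA number stands in for age here and is not a measure of it, since a high number only means a late entry in the registry.

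The libraries were nanoPARE libraries, which capture the 5′ ends of RNA, including the uncapped end left on the 3′ fragment when a miRNA-guided ARGONAUTE cuts its target. All came from whole 7-day-old seedlings of the Col-0 genotype grown on MS agar. Control seedlings were not heated, HS seedlings were kept for 1 h at 37°C, and Recovery seedlings had the same heat followed by 2 h at 22°C. Each group held 3 biological replicates, named below as Control 1 to 3, HS 1 to 3 and Recovery 1 to 3. Signal at the slice position is in RPM, that is, reads normalised to library size. Sites missing from a library's list were set to 0 there, which may mean few reads as well as none.

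MIRNA genes arise and are lost often in plants. The old families, such as those that cut mRNAs of developmental transcription factors, are abundant and have settled targets, whereas most young miRNAs are weakly expressed, stem from single genes and have few or no known targets. A plant miRNA usually cuts opposite its bases 10 and 11, so that near-complete pairing across the centre goes with cleavage, and a real site should leave a sharp 5′ end above the fragments around it. Some young miRNAs have well described targets, among them AGL16, a MADS-box gene of stomatal development cut through miR824, and the flavonol regulators MYB12 and MYB111 cut through miR858.

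The mature sequences of the guides that hold the results below are given first, 5′ to 3′, with the seed (bases 2 to 8) in capitals. They were read from the RefSeq annotation of the TAIR10.1 genome, which held all 64 miRNAs. No seed was shared between any of the 64, so the sites do not group into seed families. miR5021 and miR5658 stand out by sequence, since a repeated unit of 3 bases runs through 16 of the 20 bases of miR5021 and 19 of the 21 of miR5658.
miR5657: uGGACAAGguuagauuuggug
miR5630a: gCUAAGAGcgguucugaugga
miR824-5p: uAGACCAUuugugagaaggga
miR5595a: aCAUAUGAucugcaucuuugc
miR856: uAAUCCUAccaauaacuucagc
miR858b: uUCGUUGUcuguucgaccuug
miR8175: gAUCCCCGgcaacggcgcca
miR863-3p: uUGAGAGCaacaagacauaau
miR838: uUUUCUUCuacuucuugcaca
miR447c-3p: uUGGGGACgacaucuuuuguug
miR5021: uGAGAAGAagaagaagaaaa
miR5658: aUGAUGAUgaugaugaugaaa
miR5662: aGAGGUGAccauuggagaug
miR5024-5p: aUGACAAGgccaagauauaaca
miR2937: aUAAGAGCuguugaaggaguc

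Target sequences were found by sliding the miRNA along the RefSeq transcripts of the locus without gaps and keeping the window whose penalty equalled the deposited Allen score. This placed 51 of the 150 sites, of which 22 lay in 3′ UTRs, 19 in coding sequence and 10 in 5′ UTRs. For 40 of the 51, a single window of the transcript had that score or less. Where several windows had the score, those in the deposited transcript came first and the one nearest the deposited position was kept. The regions of such sites rest on that choice. In 10 of the 51 the base opposite miRNA base 10 was the deposited position plus 1, and the others were shifted against it, for a cause that was not tested. Coordinates and regions are therefore those of the sequence match. The window lay in the deposited transcript for 48 of the 51, and that of DEG14 lay in another transcript of its locus. The sites with Allen scores up to 2, those listed in 5 or more libraries and SE, a described target, are printed below where a single window had that score or less, or where the position matched, with the bases opposite miRNA bases 11 and 10, between which the cut would fall, in capitals.
DEG14, miR5657, chr5:9789642-9789662, minus strand, 3′ UTR, Allen score 0: caccaaaucuAAccuugucca
AT1G33120, miR5630a, chr1:12011199-12011219, plus strand, coding, Allen score 0: uccaucagaaCCgcucuuagc
PGY2, miR5630a, chr1:12023573-12023593, plus strand, coding, Allen score 0: uccaucagaaCCgcucuuagc
AGL16, miR824-5p, chr3:21180537-21180557, plus strand, 3′ UTR, Allen score 0.5: ucucuucucaCAaauggucua
MES9, miR5595a, chr4:17493050-17493070, minus strand, coding, Allen score 2: ucaaagaugcAGaucauaugc
FaTA, miR5021, chr3:9148294-9148313, minus strand, 5′ UTR, Allen score 2: guuucuucuUCuucuucucc
LARP6b, miR5658, chr2:18205685-18205705, minus strand, coding, Allen score 2: caucaucaucAUcaucaucau
PDAT, miR5658, chr5:4397285-4397305, plus strand, 3′ UTR, Allen score 2: auucaucaucAUcgucaucau
BBC1, miR5662, chr3:18168011-18168030, minus strand, coding, Allen score 3.5: uauccccaaUGgucacuuca
AT3G02750, miR5024-5p, chr3:593359-593380, minus strand, 3′ UTR, Allen score 4: uguuguuuuuuGGucuugucag
SE, miR863-3p, chr2:11576469-11576489, plus strand, 3′ UTR, Allen score 4: auuaugucuuGUuccucccaa

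Young well-paired sites were sparse, and most were listed in a single library, as were most sites of the sets they are compared with below. Of the 150 sites, 94 (62.7%) were listed in exactly 1 of the 9 libraries, 22 in 2 and 34 (22.7%) in 3 or more. Over the series, 322 of the 1662 sites were listed in 3 or more. For young sites with Allen scores over 4, 66.1% were in 1 library and 15.9% in 3 or more. For well-paired sites of older miRNAs these shares were 53.85% and 32.3%. The median line held 1 read and 0.340 RPM, and 171 of the 270 lines (63.3%) held no more than 1 read. A read was worth 0.217 to 0.429 RPM in libraries with implied totals of 2331769 to 4609739 reads. Most of the differences between libraries described below are therefore differences of a few reads.

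The authors' pipeline gave each line an adjusted p for a cut at the site, and it was under 0.05 for 15 of the 270 lines (5.56%), at 11 of the 150 sites. Over all lines of the series the share was 4.14%. Pairing set these calls apart within the young miRNAs. In the group with Allen scores of 0 to 2 (13 sites), 11 of 21 lines passed (52.4%). With scores of 2.5 to 3 (27 sites), 2 of 39 lines passed (5.13%), and with scores of 3.5 to 4 (110 sites) 2 of 210 lines (0.952%). The authors' p itself moved with the score, since the 2 CA1 positions described below had the same 2 reads and the same fold of 0.0785 in HS 1, but p was 0.306 at a score of 2 and 0.880 at a score of 4, so this order is a description. At the limit of the selection, sites with a score of 4 passed in 1.23% of 163 lines, with 0.809 as their median fold over the local background, and young sites with a score of 4.5, just outside, passed in 0.787% of 127 lines, with 0.798 as their median fold.

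How often a site was listed again did not follow the pairing score in the same order. Sites listed in 3 or more libraries were 2 of 13 with scores of 0 to 2, 4 of 27 with 2.5 to 3 and 28 of 110 (25.5%) with 3.5 to 4. The deposited fold, which is the slice-site RPM plus 1 over the RPM plus 1 of the surrounding fragments, had a median of 0.459 in the best paired group, 0.803 in the middle one and 0.807 in the last. Only 3 of the 21 best paired lines had a fold over 1, against 8 of 39 and 48 of 210 in the other groups. Of the 15 lines that passed the authors' threshold, 5 had a fold over 1 and 7 held no more than 1 read.

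The 3 sites with a perfect duplex, an Allen score of 0, each lay exactly opposite an annotated miRNA on the other strand. The DEG14 site spans the same bases as mature miR5657, the AT1G33120 site those of miR5630a, and the PGY2 site those of miR5630b. None of the other 48 placed sites lay opposite an annotated miRNA, a pattern noticed after the values were seen. These 3 sites held 7 lines, and all 7 passed the authors' threshold, which leaves 8 of the 15 passing lines to the other sites. The complementarity of these duplexes is thus that of the opposite strands of 1 locus, and at PGY2 and AT1G33120, a pair of paralogs that encode a cytosolic ribosomal protein, that of a duplicated locus.

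DEG14 (AT5G27660), which encodes a protease of the Deg family, held the young site that passed the threshold most often, in 5 libraries. Its miR5657 site gave 0.316 RPM in Control 3, 0.251 and 0.652 RPM in HS 2 and 3, and 0.618 and 0.868 RPM in Recovery 2 and 3, and was not listed in the other 4 libraries. The groups overlapped, with a 0 in each of them. The fold was 0.0107 to 0.194 in these 5 libraries, because the fragments around the site reached 7.50 to 116 RPM, well above the site itself. The authors' adjusted p was listed as 0 in all 5. The miR5630a sites were listed in HS 2 alone, at 0.248 RPM for PGY2 and 0.00251 RPM for AT1G33120. These are the portions of 1 read of that library (0.251 RPM), which cannot be assigned between the paralogs.

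Of 19 described pairs of a young miRNA and its target, 4 were listed, and all 4 were among the 150 sites. The AGL16 site of miR824-5p, with a single G:U pair as its only defect, was listed in Recovery 2 alone, at 0.309 RPM, which is 1 read. The authors' adjusted p was 0 and the fold 1.00. MYB12, with miR858b and an Allen score of 2.5, was listed at 0.698 RPM in Control 2 (adjusted p = 0.0411 by the authors' pipeline) and at 0.326 RPM in HS 3 (0.226 by the same pipeline). MYB111, with an Allen score of 4, was listed in Control 1 only, at 0.429 RPM (0.212). SE, which encodes a zinc-finger partner of DCL1 in miRNA processing and pairs with miR863-3p, was listed at 0.340 RPM in HS 1 and 0.251 RPM in HS 2 (0.374 at the lowest). No described target was listed in more than 2 libraries, and the other 15 were listed in none.

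The other sites with Allen scores up to 2 belonged to miR856, miR5595a, miR5021 and miR5658. ZAT (AT2G46800), also known as MTP1, encodes a vacuolar zinc transporter, and its miR856 site was listed in Recovery 3 alone at 0.217 RPM, 1 read, with an authors' adjusted p of 0. MES9, a methyl esterase gene, had its miR5595a site listed in Recovery 3 alone as well, at 0.868 RPM with no fragments around it (fold 1.87, adjusted p listed as 0). NIP5;1, the gene of a boric acid channel in the root, had a miR5021 site near the transcript start at position 34, listed in Recovery 2 alone at 1.24 RPM (fold 2.24, adjusted p = 0.00593 by the authors' pipeline). NIP5;1 and MES9 were the sites with scores up to 2 that combined a passing p with a fold over 1.

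Among the remaining sites of this kind none passed the authors' threshold. FaTA, which encodes an acyl-ACP thioesterase of plastid fatty acid synthesis, was listed in Recovery 2 at 0.309 RPM with miR5021. AT4G32590 was listed with miR5021 in Control 3 at 0.316 RPM. The miR5658 sites were those of LARP6b, an RNA-binding La-related protein gene (Control 2, 0.349 RPM), PDAT, an acyltransferase gene of triacylglycerol synthesis (Recovery 2, 0.0185 RPM, a fraction of a read), AT4G23680 (HS 2, 0.251 RPM, and Recovery 2, 0.309 RPM) and CA1. CA1, which encodes the abundant carbonic anhydrase of chloroplasts, had 2 miR5658 positions, 1175 with Allen score 2 and 1200 with Allen score 4, in the same repeat.

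Neither CA1 position was listed in any Control library. Position 1175 gave 0.681 RPM in HS 1, 0 in HS 2 and HS 3, and 1.16, 0.618 and 0.217 RPM in Recovery 1, 2 and 3. Position 1200 gave 0.681, 0.251 and 0.326 RPM in HS 1 to 3 and 1.16, 1.24 and 0.651 RPM in Recovery 1 to 3, so that HS and Recovery both lay above Control without overlap. At position 1200 the fragments around the slice position held 8.80 to 68.3 RPM and the fold was 0.0238 to 0.135, so the site was no peak in its surroundings.

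With scores of 2.5 to 3, AT5G20670 was the only site besides MYB12 to pass the authors' threshold. It pairs with miR8175 and was listed in Control 3 alone at 0.316 RPM (fold 1.32, adjusted p = 0.0125 by the authors' pipeline). The 4 sites of this group listed in 3 libraries were those of AT2G17880, AT3G11830 and PDE334 with miR5021 and AT5G10960 with miR5654-5p. PDE334, the gene of a chloroplast ATP synthase subunit, gave 0.291, 0.927 and 1.08 RPM in Recovery 1 to 3 and 0 in the 6 other libraries. AT2G17880 gave 0.582, 0.309 and 0.217 RPM in the Recovery libraries and 0 elsewhere. AT3G11830, which encodes a subunit of the cytosolic chaperonin, gave 1.05 RPM in Control 2, 0.291 RPM in Recovery 1 and 0.309 RPM in Recovery 2. AT5G10960 gave 0.858 RPM in Control 1, 0.927 RPM in Recovery 2 and 0.217 RPM in Recovery 3. The first 2 genes were thus listed in every Recovery library and no other, whereas the last 2 were listed in Control and Recovery.

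With scores of 3.5 to 4, 2 sites passed the authors' threshold, each in 1 library. AT5G01090, with miR838, gave 1.16 RPM with a fold of 2.16 in Recovery 1 (adjusted p = 0.0228 by the authors' pipeline), and 0.631 RPM in Control 3 and 0.651 RPM in Recovery 3 without passing. ABCA7, a transporter gene paired with miR447c-3p, gave 0.631 RPM in Control 3 alone (fold 1.63, adjusted p = 0.0423 by the authors' pipeline). AT5G01090 was thus among the sites of this group listed in 3 or more libraries, while none of those listed in 4 or more passed.

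The site with the largest signal lay in the mitochondrial locus ATMG00020 and pairs with miR2937 at an Allen score of 4. It was the only one of the 150 listed in all 9 libraries. It gave 3.86, 7.32 and 5.37 RPM in Control 1 to 3, 11.2, 1.51 and 6.84 RPM in HS 1 to 3, and 1.16, 1.24 and 0.217 RPM in Recovery 1 to 3. The 3 Recovery values lay below all values of Control and of HS, while Control and HS overlapped. The fragments around it held 6.99 to 42.9 RPM and the fold was 0.0587 to 0.591, and the authors' adjusted p was 0.631 to 0.804. A nuclear miRNA and a mitochondrial transcript are made in different compartments, and how the line was assigned was not tested.

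miR5021 held 48 of the 150 sites (32.0%) and 74 of the 270 lines (27.4%), more than any other guide. miR5658 followed with 11 sites, miR838 and miR859 had 6 each, miR5662 had 4 and miR4227 had 3, and 46 of the 64 miRNAs had a single site. The slice positions of miR5021 lay near the transcript starts more often than those of the other guides, with 21 of 48 (43.8%) within the first 250 bases against 7 of 91 (7.69%) for guides other than miR5021 and miR5658. Of the 23 placed miR5021 sites, 10 lay in 5′ UTRs, 8 in 3′ UTRs and 5 in coding sequence. All 10 sites placed in 5′ UTRs were sites of miR5021, and for 2 of them, D6PK and AT1G54080, the window lay far upstream of the deposited position and in another transcript of the locus. Only 1 of its 74 lines, that of NIP5;1, passed the authors' threshold.

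The miR5021 lines numbered 7, 6 and 6 in Control 1 to 3, 3, 8 and 1 in HS 1 to 3, and 11, 16 and 16 in Recovery 1 to 3. Every Recovery library listed more of them than any Control or HS library. The miR5021 lines of Control 1 to 3 summed to 3.86, 2.79 and 3.45 RPM, those of HS 1 to 3 to 2.04, 3.02 and 0.326 RPM, and those of Recovery 1 to 3 to 3.78, 7.11 and 5.21 RPM, where Control and Recovery overlapped. The miR5658 lines numbered 0, 1 and 0 in Control, 3, 3 and 2 in HS, and 2, 4 and 5 in Recovery, so that HS and Recovery both lay above Control. A read was worth 0.217 to 0.309 RPM in the Recovery libraries, against 0.316 to 0.429 RPM for Control and 0.251 to 0.340 RPM for HS, so that every Recovery library was deeper than every Control library, and the part of depth in these counts was not tested. These guides were picked out after their values were seen, and their counts are given as a description.

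miR5662 and miR4227 had their lines mostly in Control and HS. All lines of a library together also summed to less in Recovery, with 125.4 to 180.7 RPM, than in Control, with 298.5 to 332.7 RPM. In HS these sums were 170.2 to 344.9 RPM. The part of this in the values below was not tested, and they are given as a description. BBC1, the gene of a cytosolic ribosomal protein of the large subunit, gave 1.71, 1.74 and 0.631 RPM with miR5662 in Control 1 to 3, 0, 0.251 and 2.28 RPM in HS 1 to 3, and 0 in every Recovery library. AT3G09200, a gene of the ribosomal stalk protein P0, gave 0, 1.05 and 0.631 RPM in Control, 0.340, 0.251 and 1.60 RPM in HS and 0 in Recovery. Its paralog AT3G11250 gave 0.349 RPM in Control 2 and, among HS libraries, 0.340 RPM in HS 1 and 0.0293 RPM in HS 3. Recovery thus lay at 0 for all 3, and the single miR5662 line of Recovery was the site in the spliceosome gene U2B'' (0.217 RPM, Recovery 3). The miR4227 site of TGG1, the gene of a myrosinase of the mustard oil defence, gave 1.71, 0.349 and 0.631 RPM in Control, 0.340, 0 and 1.96 RPM in HS and 0 in Recovery. AT4G12650, also paired with miR4227, gave 0.349 and 0.947 RPM in Control 2 and 3 and 0.681 RPM in HS 1.

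The 6 miR859 sites lay in F-box genes, 5 of them close paralogs on chromosome 1 that shared reads at 0.00316 to 0.0789 RPM a line. These were listed in Control 3 and Recovery 1 only. The sixth, AT3G44120, gave 0.316 RPM in Control 3. Several other pairs of sites lay in overlapping or adjacent loci and were counted separately, among them AT3G22968 and AT3G22970, AT1G78880 and AT1G78882, AT5G41990 and AT5G41992, and AT2G43018 and AT2G43020, where strand and locus could not be told apart.

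Listing by 2 or more of the 3 replicates of a group was taken as presence there. By this count Control held 15 sites, HS 13 and Recovery 18, in all 35 of the 150, and 26 of these were in 1 group only (8 in Control, 6 in HS and 12 in Recovery). Only 2 sites were in all 3 groups, those of ATMG00020 and of ECS1, paired with miR5021. ECS1 gave 0.429, 0.349 and 1.58 RPM in Control, 1.02, 0.753 and 0 RPM in HS and 0, 0.618 and 0.217 RPM in Recovery. All 3 replicates listed 7 sites in Control, 3 in HS and 8 in Recovery. No count over all sites of the series stands beside these, and 63.3% of the lines held no more than 1 read. The counts by group are therefore a description, and whether they differ from those of other sites was not tested.

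Between groups, the number of young well-paired sites did not differ beyond the spread of the libraries. Control listed 31.7 ± 9.07 sites, HS 24.3 ± 4.73 and Recovery 34.0 ± 3.46 (SD, n = 3; exact permutation test over 280 assignments, p = 0.257, adjusted p = 0.309 over 6 results). Their summed signal in Control, HS and Recovery was 22.1 ± 2.85, 17.5 ± 6.74 and 14.9 ± 1.65 RPM (exact permutation p = 0.204, adjusted p = 0.305). Without the mitochondrial site it was 16.6 ± 3.03, 11.0 ± 2.11 and 14.0 ± 1.61 RPM. When the libraries were rescaled to the same listed sum, Recovery became the highest group, with means of 23.7 RPM against 17.4 RPM for Control and 15.8 RPM for HS, and the adjusted exact permutation p was 0.0286, so no direction can be given for the summed signal. Sites passing the authors' threshold numbered 1.33 ± 1.53, 1.33 ± 1.53 and 2.33 ± 1.15 per library (exact permutation p = 0.743).

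Of the 3 Allen score groups, only the best paired one passed the test between treatments. Sites with scores of 0 to 2 gave 0, 0.349 and 0.631 RPM in Control 1 to 3, 0.681, 0.753 and 0.652 RPM in HS 1 to 3, and 1.16, 3.42 and 2.17 RPM in Recovery 1 to 3. The 3 groups did not overlap, and their means were 0.327 ± 0.316, 0.695 ± 0.0519 and 2.25 ± 1.13 RPM (SD, n = 3), so that the Recovery mean was 6.89 times that of Control (exact permutation p = 0.00357, the smallest the 280 assignments can give, adjusted p = 0.0214). Each pair of groups gave p = 0.1 in the exact permutation test, the smallest that 3 against 3 can give. The values rest on 0 to 3 reads in each Control and HS library and 4 to 11 reads in each Recovery library. The call was lost without any 1 of the Control or HS libraries (adjusted p of 0.0857 to 0.257), without miR5021 and miR5658 (0.364), where the means were 0.105, 0.384 and 0.960 RPM, and without miR5657 and miR5630a (0.139), where they were 0.222, 0.310 and 1.75 RPM.

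Sites with scores of 2.5 to 3 gave 1.86 ± 0.496, 0.927 ± 0.704 and 2.81 ± 1.06 RPM in Control, HS and Recovery (exact permutation p = 0.0464, adjusted p = 0.139). Sites with scores of 3.5 to 4 gave 19.9 ± 2.20, 15.9 ± 6.47 and 9.84 ± 0.509 RPM (exact permutation p = 0.107, adjusted p = 0.214). The Recovery values of this last group, 9.27 to 10.3 RPM, lay below the Control values of 18.5 to 22.5 RPM, and the mitochondrial site made up part of that gap. Without it the means were 14.4, 9.33 and 8.96 RPM (exact permutation p = 0.05). With the libraries rescaled to the same listed sum the means were 15.7, 14.2 and 15.9 RPM and Recovery was no longer the lowest (adjusted exact permutation p = 0.743). Neither of these groups passed the adjusted test.

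Single sites were tested with limma on log2(RPM + 1) over the 322 sites listed in 3 or more of the 9 libraries, of which 34 were young and well paired. None of the 34 passed an adjusted p of 0.05 in any comparison. For HS against Control, where 4.97% of all 322 sites passed, 3 of the 34 had an unadjusted p under 0.05, beside 51 of all 322. For Recovery against Control, where 2.8% passed, 12 of the 34 had an unadjusted p under 0.05, beside 62 of all 322. For Recovery against HS, where 0.932% passed, 6 of the 34 had an unadjusted p under 0.05, beside 38 of all 322. These counts are a description. Of the 34 sites, 4 were listed in the 3 Recovery libraries alone and 2 in the 3 Control libraries alone. The filter fixed the direction of their differences, and AT2G17880, AT3G59040 and PDE334 are among the sites counted in both comparisons with Recovery. The median log2 difference of the 34 sites was 0.00 for HS against Control, beside -0.13 over all 322 sites, -0.06 beside -0.15 for Recovery against Control, and 0.00 beside -0.02 for Recovery against HS. The comparisons with Control share its libraries.

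Some of the 34 sites had groups that did not overlap. For 6 of them this followed from the filter on 3 libraries, since 4 were listed in the 3 Recovery libraries alone and 2 in the 3 Control libraries alone, and their values are a description. In HS above Control, 1 did, the CA1 position 1200, while 6.21% of all 322 sites did. In HS below Control there were 3 (all sites, 10.2%): RPL12-A, a plastid ribosomal protein gene paired with miR418, AT4G02725 with miR4240, and SYTA, a synaptotagmin gene of membrane trafficking paired with miR5014a-5p. RPL12-A gave 0.429, 0.349 and 0.631 RPM in Control 1 to 3 and was not listed in any HS or Recovery library. SYTA gave 0.429, 0.349 and 0.947 RPM in Control and was likewise listed in no heated library. AT4G02725 gave 1.71, 0.349 and 0.631 RPM in Control and 0.309 RPM in Recovery 2 alone among the heated libraries. RPL12-A and SYTA are the 2 sites that passed the filter through Control alone. At AT4G02725 the log2 difference between HS and Control was -0.86 ± 0.32 (SE, limma, adjusted p = 0.157).

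In Recovery above Control there were 6 such sites (all sites, 7.14%). They were AT2G17880, AT3G59040 and PDE334 with miR5021, both CA1 positions, and AT3G15480 with miR849. AT3G59040 gave 0.582, 0.309 and 0.217 RPM in Recovery 1 to 3 and AT3G15480 gave 0.291, 0.309 and 0.217 RPM, and neither was listed elsewhere. The CA1 position 1200 had the largest log2 difference of these between Recovery and Control, 1.00 ± 0.32 (SE, limma, adjusted p = 0.0835). The 3 miR5021 sites and AT3G15480 are the 4 that passed the filter through Recovery alone. At PDE334 the fragments around the site held 6.80 to 16.7 RPM and the fold was 0.118 to 0.247. In Recovery below Control there were 6 (all sites, 15.8%), those of ATMG00020, RPL12-A, TGG1, AT4G02725, SYTA and BBC1. At ATMG00020 the log2 difference was -1.82 ± 0.59 (limma, adjusted p = 0.0835).

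In Recovery above HS there were 5 (all sites, 5.59%), the 3 miR5021 sites just named, AT3G15480, and AT3G02750 with miR5024-5p. AT3G02750, a gene of a protein phosphatase 2C, gave 0.429, 0 and 1.26 RPM in Control, 0 in every HS library, and 1.45, 1.85 and 1.08 RPM in Recovery. Its fold was 1.00 to 1.48, so that the site was at or above its surroundings wherever it was listed, and the authors' adjusted p was 0.232 to 0.517. Between Recovery and HS its log2 difference was 1.29 ± 0.36 (limma, adjusted p = 0.0948). In Recovery below HS there were 2 (all sites, 7.45%), ATMG00020 and AT3G09200. Of the sites above HS, AT3G02750 is thus the only one that the filter did not fix, and no site of these lists passed limma's adjusted test.

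The other sites listed in 3 or more libraries carried a few reads and no group pattern without overlap. They were STO and NAC083, transcription regulator genes paired with miR1886.1 and miR1886.3, PSRP5, a plastid ribosomal protein gene, ACX1, a peroxisomal acyl-CoA oxidase gene, and D6PK, a kinase gene of auxin transport, all 3 with miR5021, EIF4A-2, a translation initiation factor gene, and AT1G62480 with miR838, AT3G44940 with miR3440b-3p, HCF173, which is needed for translation of a photosystem II subunit, with miR868-3p, AT3G59080 with miR419, TSB1, a tryptophan synthase gene, with miR5642a, AT2G34585 with miR8170-5p, and MBD1, a methyl-CpG-binding domain gene, with miR831-3p. Their values ran up to 1.29 RPM, at PSRP5 in Control 1. AT2G42910 with miR3434-3p and PRP3, a root hair wall protein gene, with miR5595a were listed in 2 Control libraries, and ACO1, an aconitase gene paired with miR5021, in 2 Recovery libraries. The 98 sites outside the rule for naming sites, MYB111 among them, were listed in 1 library (82 sites) or 2 (16 sites), with values of up to 1.30 RPM, and none passed the authors' threshold.

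Well-paired sites of young miRNAs differed from well-paired sites of older miRNAs in every library. The older set took miRNAs numbered below miR415 together with miR472, miR827, miR828 and miR857, and miR414 was in neither set. It held 65 sites and 151 lines, and 42.2 ± 16.0% of its lines per library passed the authors' threshold, against 5.32 ± 4.02% for the young set (SD, n = 9). The share was lower for the young set in 9 of 9 libraries, with a mean difference of -36.9 ± 17.8 percentage points (two-sided exact sign-flip permutation test, p = 0.00391, the smallest possible, adjusted p = 0.00781 over 4 results). The difference was smallest in HS 2, at -0.962 percentage points. The authors' p moves with the Allen score, and the sets differ in it. Scores of 0 to 2 were held by 52 of the 151 older lines and by 21 of the 270 young lines. The test of shares therefore cannot tell miRNA number from pairing. Without miR5021 and miR5658, left out after seeing the data, the mean difference was -33.4 percentage points (exact sign-flip permutation, adjusted p = 0.0156). The median log2 fold over local background was -0.40 ± 0.25 for the young and 0.24 ± 0.24 for the older set, again lower in 9 of 9 libraries (exact sign-flip permutation p = 0.00391, adjusted p = 0.00781). Both sets are fixed lists measured in the same libraries, so these p-values are about the libraries and not about other sites. Pooled over libraries, 59.6% of older lines and 21.9% of young lines had a fold over 1.

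The young set was less well paired on average, so the sets were also read within Allen score groups. With scores of 0 to 2, 51 of 52 older lines passed the authors' threshold (98.1%) and 86.5% had a fold over 1, against 52.4% and 14.3% of the 21 young lines. With scores of 2.5 to 3, 12 of 17 older lines passed (70.6%), against 2 of 39. With scores of 3.5 to 4, 8 of 82 older lines passed (9.76%), against 2 of 210. In a comparison within scores of 3.5 to 4, chosen after seeing the data, the difference in fold held (mean difference of -0.47 on the log2 scale, adjusted p = 0.0156, exact permutation), and the difference in the share of passing lines did not pass the test (-6.82 percentage points, adjusted exact permutation p = 0.167).

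Young sites with Allen scores over 4 (879 sites, 1500 lines) passed the authors' threshold in 0.155 ± 0.307% of the lines of a library, beside 5.32 ± 4.02% for the well-paired young sites (SD, n = 9). The sets are divided by the Allen score, with which the authors' p moves, so these shares are given as a description with no test. Without miR5657 and miR5630a, the guides of the perfect duplexes, the mean difference was 2.45 instead of 5.17 percentage points. The fold over local background did not differ between the sets beyond the spread of the libraries, with a median log2 fold of -0.40 ± 0.25 for the well-paired and -0.37 ± 0.11 for the weakly paired young sites (mean difference -0.03 ± 0.30, exact sign-flip permutation p = 0.719). In 5 libraries the well-paired sites had the higher median fold and in 2 the lower.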

How the data were processed

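Per the labels, nanoPARE libraries were made from total RNA of seedlings in 3 groups of 3 biological replicates, whose titles gave group and replicate number. The reads were run by the authors through the nanoPARE pipeline on build TAIR10, of which neither version nor settings are given in the sources used here. Each deposited list holds 1 line per site and library, and replicates were not pooled. The authors deposited the slice-site signal in RPM. The deposited ratio, called fold, is (site RPM + 1)/(local background RPM + 1), as solved from the values. The p-value is the authors' adjusted p per site within a library. The Allen score deposited by the authors penalises mismatches and G:U pairs, doubled from miRNA base 2 to 13.

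The commonest RPM of a library was taken as 1 read, and 89.2 to 94.4% of values were whole multiples of it (tolerance 0.01 read), so no count model was fitted. Depth was 2331769 to 4609739 implied reads per library. Intervals of single lines were not computed, and PCR copies could not be told from molecules.

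The members, the gene list and the rule for naming sites were chosen with earlier results of these data known. Named were sites with Allen score up to 2, in 3 or more libraries or 2 replicates of a group, with the authors' p under 0.05 or limma's adjusted p under 0.05, or among the 3 largest mean RPM of their Allen score group. Values per library were compared between groups by exact permutation (280 assignments) and between site sets by exact sign flips over libraries (512 patterns), with Benjamini-Hochberg adjustment over 6 and 4 results. Sites were tested with limma 3.58.1 (R 4.3.3) on log2(RPM + 1), which understates changes of low sites, in 1 fit over the 9 libraries, and p-values were adjusted over 322 sites by Benjamini-Hochberg. The tests were run on simulated data with large planted changes, which does not measure how well they find small ones. Alternatives were leaving out each library, a replicate block, another Allen limit, lines over 1 read, rescaling, other filters and pseudocounts, and the left-out loci kept. Sequences come from RefSeq TAIR10.1 (pandas 2.3.3, NumPy 2.4.6, SciPy 1.17.1, Python 3.11.15).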

Additional observations from a re-analysis of the deposited data

How the results depend on the processing

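The group difference of summed RPM at sites with Allen scores of 0 to 2 was the result that hung on the processing. Its adjusted exact permutation p ranged from 0.0214 to 0.257 when 1 library was left out and stayed under 0.05 only in the 3 cases that dropped a Recovery library. It was 0.0857 with lines over 1 read only. Of the alternatives chosen after seeing the data, it was 0.364 without miR5021 and miR5658 and 0.139 without miR5657 and miR5630a. With replicate number as a block it was 0.167. The unadjusted exact permutation p was then 0.0278, the smallest that shuffling within replicate numbers can give. Beside the larger p-values of the other results it could not pass after adjustment, so the block cannot decide whether the difference holds. The replicate numbers also did not pair the libraries. Deviations from group means correlated at -0.098 to 0.099 between same-numbered libraries and at -0.096 to 0.128 between others. Rescaling to the same listed sum brought the summed RPM of all young well-paired sites and of those with scores of 2.5 to 3 under the threshold (0.0286 each).

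Leaving out 1 library, limma called 7 to 15 sites of all sites between HS and Control (16 with all libraries), 1 to 14 between Recovery and Control (9) and 2 to 13 between Recovery and HS (3). Young well-paired sites called stayed at 0 between HS and Control, and ran from 0 to 2 between Recovery and Control (2 without HS 2, 1 without HS 3) and from 0 to 1 between Recovery and HS (1 without HS 2). Rescaling gave 9 calls between HS and Control, 5 between Recovery and Control and 1 young well-paired site in each comparison with Recovery. Without a filter there were 4 calls between Recovery and Control and 5 between Recovery and HS. The block changed no count of calls by over 1.5 times.

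Young sites passed the authors' threshold less often than older ones in every setting, but within scores of 3.5 to 4 the difference of -6.82 percentage points missed the test. The authors' p moves with the Allen score, in which the young and older sets differ. The difference from weakly paired young sites was 2.45 percentage points without miR5657 and miR5630a. Of 148 values of the results per library under an alternative, 134 kept their side of the threshold, and in 8 of these, none past it, the direction changed. The number of sites listed was highest in Control instead of Recovery without Control 1, with lines over 1 read and without miR5021 and miR5658. The causes were not tested. Most lines held 1 read, unlisted sites are not shown to be uncut, and the exact permutation test of 3 against 3 libraries cannot give p under 0.1.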
